A study of Mus musculus with 6 samples.

Results

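The genes described are 41 type I interferon-stimulated genes (ISGs) of the mouse, chosen by name from a list of ISGs and found among the 47729 genes counted in spleen RNA. All 41 were present in the count table, and all 41 passed the filter on low counts that left 15330 genes for testing. They comprise 5 sensors of RNA and other nucleic acids, 4 IFIT proteins, 6 members of the OAS family, 2 Mx GTPases, 8 other antiviral effectors, 4 genes of the ISG15 conjugation system, 4 genes of an ADP-ribosylation group, and 8 nuclear and other proteins.

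Type I interferons bind the receptor formed by Ifnar1 and Ifnar2, and the kinases Jak1 and Tyk2 bound to it then signal to the transcription factor complex ISGF3, which includes Stat2 and Irf9. This complex enters the nucleus and binds interferon-stimulated response elements (ISREs) in the promoters of target genes. The products of these genes sense foreign nucleic acids, block viral replication and translation, or restrain the signal itself, and raised ISG transcripts in blood cells and salivary glands are a known feature of many patients with Sjögren's syndrome.

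Spleens of female NOD.B10 mice (NOD.B10Sn-H2b/J), a strain that develops a disease like primary Sjögren's syndrome, were compared with those of female BL/10 mice (C57BL10/SnJ), the healthy control strain, with 3 mice of each strain. RNA of whole spleen was sequenced as single reads of 50 bases, so a transcript level is an average over all spleen cells. The total counts were 16476126, 16257041 and 17160323 in NOD.B10 replicates 1, 2 and 3 and 18298451, 15662712 and 17935130 in BL/10 replicates 1, 2 and 3. Levels below are counts scaled to library size with TMM factors (CPM) and are always given in the order of replicates 1, 2 and 3. Detection was set at 3 counts, which is 0.163 to 0.201 CPM depending on the library, and this limit takes in only the error of counting.

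Sample labels conflict. For all 6 libraries the sample title and the strain field give one strain, whereas the sample description, the column name and the counting command give the other. The strain of the description was used throughout, and every direction below would turn around under the titles. Ifi202b, an interferon-inducible gene known to be nearly silent in C57BL/6 mice, relatives of BL/10, had 838, 624 and 485 counts in the libraries called NOD.B10 and 2, 0 and 0 in those called BL/10. Ages also differ in the labels, which give 26 weeks for the 3 NOD.B10 libraries and BL/10 replicate 1 and 36 weeks for BL/10 replicates 2 and 3, while the study describes the mice as matched in age, and the age field stands beside the strain field that conflicts.

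BL/10 replicate 1 stands apart from the other BL/10 libraries. Summed over 13 acinar genes of the pancreas, its level was 13240 CPM, against 1982 and 111 CPM in BL/10 replicates 2 and 3 and 31.5, 29.9 and 22.4 CPM in the NOD.B10 libraries. It also had the lowest level among the BL/10 libraries for 27 of the 41 ISGs (65.9%), against 35.1% of all genes tested. Results that rest on this library are therefore given with and without it.

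ISGs were lower in NOD.B10 spleens or did not pass the threshold, and none was higher past it. By edgeR's quasi-likelihood test, with Benjamini-Hochberg adjustment over all 15330 genes and a threshold of 0.05, 18 of the 41 ISGs were lower in NOD.B10 and 0 were higher. Across all genes tested, 17.3% passed the threshold, 8.17% as lower and 9.16% as higher in NOD.B10. The median log2 fold change of the 41 ISGs was -0.58, against 0.00 over all genes tested, and 36 of the 41 fold changes were below 0. In 23 ISGs every NOD.B10 library lay below every BL/10 library and in 0 the reverse held, whereas these patterns were found in 17.5% and 20.5% of all genes tested. The summed level of the 41 ISGs was 2569, 2204 and 2548 CPM in the NOD.B10 libraries and 2885, 3881 and 3410 CPM in the BL/10 libraries. In bulk spleen RNA, fewer cells of a type that transcribes these genes and less RNA per cell cannot be told apart.

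**Figure D1:**
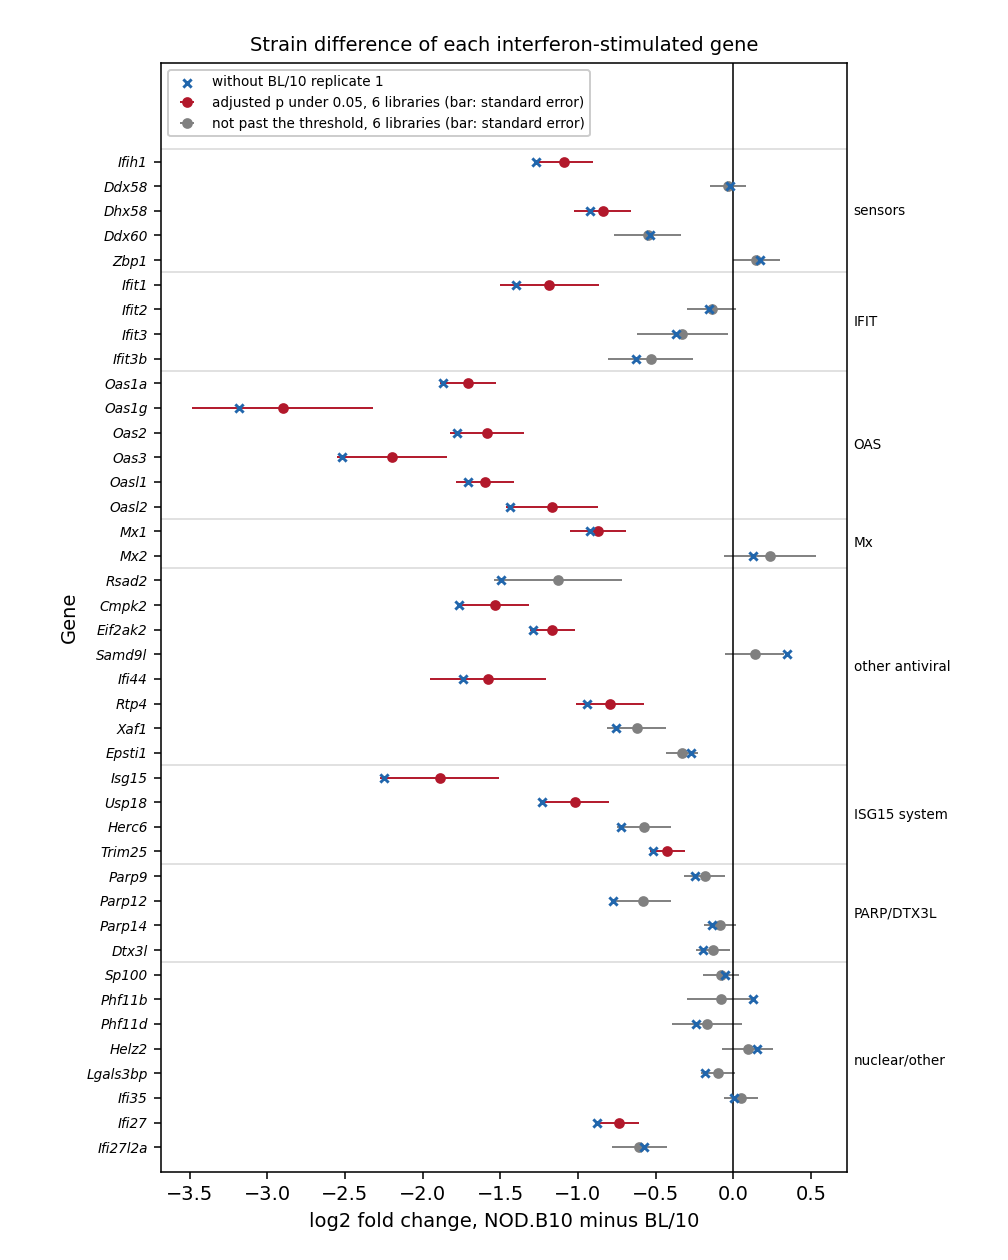
Log2 fold change of each of the 41 ISGs (NOD.B10 minus BL/10, horizontal axis), grouped by role, with the standard error as a bar, in the 6 libraries (circles, red where the adjusted p was under 0.05) and without BL/10 replicate 1 (crosses). The 18 red circles all lie below 0, and all 6 OAS genes are among them, of which Oas1g passed the filter through its BL/10 counts alone.

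Among the 5 sensors, 2 fell in NOD.B10 and the median log2 fold change was -0.55. Ifih1, which encodes MDA5, a sensor of long double-stranded RNA, was at 28.8, 23.8 and 24.7 CPM in the NOD.B10 libraries and 41.3, 69 and 54.3 CPM in the BL/10 libraries. The strains did not overlap, BL/10 replicate 1 was the BL/10 library closest to NOD.B10, and Ifih1 fell by 1.09 on the log2 scale (SE 0.18, adjusted p = 0.00724, past the threshold in 14 of 15 alternatives). Dhx58, which encodes LGP2, a regulator of the other RNA helicase sensors, was at 17.7, 11.9 and 18.9 CPM in NOD.B10 and 26, 33.4 and 27.5 CPM in BL/10. All NOD.B10 libraries were below all BL/10 libraries, with NOD.B10 replicate 2 the lowest. Dhx58 fell by 0.84 on the log2 scale (SE 0.18, adjusted p = 0.019, past the threshold in 12 of 15 alternatives), and it missed the threshold without NOD.B10 replicate 1 or BL/10 replicate 2 (adjusted p = 0.0548 to 0.0573, range over the alternatives 0.000571 to 0.177). Ddx60, a helicase linked to RIG-I-like sensing, did not pass although its strains did not overlap, at 15.2, 9.09 and 14.9 CPM in NOD.B10 and 19.8, 22 and 15.8 CPM in BL/10, with a log2 fold change of -0.55 (SE 0.21, adjusted p = 0.114). Ddx58, which encodes the sensor RIG-I, and Zbp1, a sensor of left-handed nucleic acid helices, overlapped between strains, with log2 fold changes of -0.03 and 0.15.

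Of the 4 IFIT genes, whose products bind foreign RNA and block its translation, only Ifit1 passed the threshold. Its level was 20.5, 11.5 and 19.9 CPM in the NOD.B10 libraries and 27.5, 58.1 and 32.8 CPM in the BL/10 libraries. No NOD.B10 library reached the lowest BL/10 library, and BL/10 replicate 2 was far above the rest. Ifit1 fell by 1.19 on the log2 scale (SE 0.32, adjusted p = 0.041, past the threshold in 7 of 15 alternatives), a call lost without NOD.B10 replicate 1, 2 or 3 or BL/10 replicate 2 or 3 (adjusted p = 0.0684 to 0.0978, range over the alternatives 0.00144 to 0.408). Ifit2, Ifit3 and Ifit3b overlapped between the strains, with log2 fold changes of -0.14, -0.33 and -0.53 and adjusted p of 0.575, 0.47 and 0.211 by edgeR. Ifit3 and Ifit3b share much of their sequence, and 51.2% of the distinct 50-base windows in Ifit3 transcripts and 44.5% of those in Ifit3b transcripts occur in the other gene. Reads that fit both genes were left out of the counts, so the levels of both are uncertain.

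The OAS family, enzymes and enzyme-like proteins of which the active members make oligoadenylates that switch on RNase L, was the role in which every member fell, 6 of 6, with a median log2 fold change of -1.65. The 6 include Oas1g, which passed the filter through its BL/10 counts alone and so adds no support for the family as a whole. Oas3 was at 19.9, 13.9 and 14.2 CPM in NOD.B10 and 38.2, 107 and 75.3 CPM in BL/10. The strains were well apart, and within BL/10 the level was lowest in replicate 1. Oas3 fell by 2.20 on the log2 scale (SE 0.36, adjusted p = 0.00631, past the threshold in 14 of 15 alternatives) and missed the threshold with no filter on low counts (adjusted p = 0.0621). With age as a covariate the log2 fold change of Oas3 was -1.254. Oas1a was at 5.92, 5.04 and 5.28 CPM in NOD.B10 and 13.9, 21.6 and 17.7 CPM in BL/10. The NOD.B10 libraries lay close together and below the whole BL/10 range, and Oas1a fell by 1.71 on the log2 scale (SE 0.18, adjusted p = 0.000799, past the threshold in 15 of 15 alternatives). Oas2 was at 3.47, 2.64 and 3.99 CPM in NOD.B10 and 7.50, 12.5 and 10.5 CPM in BL/10. Again no library of one strain entered the range of the other, and Oas2 fell by 1.59 on the log2 scale (SE 0.24, adjusted p = 0.00387, past the threshold in 15 of 15 alternatives).

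Oasl1, an OAS-like protein without the enzymatic activity that is known to restrain translation of Irf7, was at 5.92, 3.93 and 5.73 CPM in NOD.B10 and 13.5, 17.9 and 16 CPM in BL/10. All BL/10 libraries, replicate 1 included, lay far above the NOD.B10 libraries, and Oasl1 fell by 1.60 on the log2 scale (SE 0.19, adjusted p = 0.00128, past the threshold in 15 of 15 alternatives). Its neighbor Oasl2 was at 24.9, 14.6 and 17.2 CPM in NOD.B10 and 26.1, 55 and 46.5 CPM in BL/10. Here BL/10 replicate 1 was only just above NOD.B10 replicate 1, and the difference came mostly from BL/10 replicates 2 and 3. Oasl2 fell by 1.17 on the log2 scale (SE 0.30, adjusted p = 0.0336, past the threshold in 8 of 15 alternatives) and missed the threshold without NOD.B10 replicate 2 or 3 or BL/10 replicate 2 or 3 (adjusted p = 0.0831 to 0.119, range over the alternatives 0.000812 to 0.413). The Oasl2 call was also lost with a replicate block (adjusted p = 0.0915 by edgeR) and with age as a covariate, where the log2 fold change was -0.464. Oas1g was scarce, at 2, 2 and 8 counts in NOD.B10 against 20, 43 and 27 in BL/10, or 0.120, 0.123 and 0.450 CPM and 1.09, 2.88 and 1.53 CPM. NOD.B10 replicates 1 and 2 were under the limit of detection, and replicate 3 was below all BL/10 libraries. Oas1g passed the filter through its BL/10 counts alone, and where at least 10 counts in every library were required it was not tested and the other 5 OAS genes passed. Oas1g fell by 2.90 on the log2 scale (SE 0.58, adjusted p = 0.0135, past the threshold in 12 of 14 alternatives), a call lost without NOD.B10 replicate 1 (adjusted p = 0.0598, range over the alternatives 0.00024 to 0.138), and without single libraries its log2 fold change ranged from -3.82, without NOD.B10 replicate 3, to -2.44. Oas1a and Oas1g are close copies, and 57.6% of the 50-base windows of Oas1a and 45.2% of those of Oas1g are found in the other gene. Reads that fit both were left out of the counts, so their separate levels are uncertain.

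Of the Mx GTPases, which trap viral nucleoproteins, Mx1 fell and Mx2 did not pass. Mx1 was at 8.85, 5.96 and 9.21 CPM in NOD.B10 and 13.8, 16.6 and 13.6 CPM in BL/10. The 3 BL/10 libraries lay close together above all NOD.B10 libraries, and Mx1 fell by 0.87 on the log2 scale (SE 0.18, adjusted p = 0.0161, past the threshold in 14 of 15 alternatives). Mx2 ranged from 2.70 to 5.96 CPM in NOD.B10 and from 3.53 to 4.43 CPM in BL/10, so that the strains overlapped.

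Among the 8 other antiviral effectors, 4 fell in NOD.B10 (Cmpk2, Eif2ak2, Ifi44 and Rtp4) and the median log2 fold change was -0.96. Cmpk2, a mitochondrial nucleotide kinase, was at 30.4, 30.3 and 28.7 CPM in NOD.B10 and 57.9, 112 and 89.2 CPM in BL/10. The NOD.B10 libraries were nearly equal and all below BL/10 replicate 1, the lowest BL/10 library. Cmpk2 fell by 1.53 on the log2 scale (SE 0.22, adjusted p = 0.0034, past the threshold in 15 of 15 alternatives). Eif2ak2, which encodes the kinase PKR that halts translation upon binding double-stranded RNA, was at 34.9, 31.8 and 30.9 CPM in NOD.B10 and 60.5, 89.2 and 69 CPM in BL/10. The gap between strains was wider than the spread within NOD.B10, and Eif2ak2 fell by 1.16 on the log2 scale (SE 0.15, adjusted p = 0.00178, past the threshold in 15 of 15 alternatives). Ifi44, an interferon-induced protein with a GTP-binding motif, was at 5.14, 1.78 and 5.56 CPM in NOD.B10 and 9.83, 16 and 11.8 CPM in BL/10. NOD.B10 replicate 2 was far below the other NOD.B10 libraries, and all were below BL/10. Ifi44 fell by 1.58 on the log2 scale (SE 0.38, adjusted p = 0.0273, past the threshold in 9 of 15 alternatives), lost without NOD.B10 replicate 1 or BL/10 replicate 2 or 3 (adjusted p = 0.0661 to 0.0989, range over the alternatives 0.000305 to 0.224). Rtp4, a chaperone of membrane receptors, was at 17.8, 12.1 and 17.4 CPM in NOD.B10 and 21.9, 35.6 and 24.6 CPM in BL/10. The highest NOD.B10 library was not far below BL/10 replicate 1, and Rtp4 fell by 0.79 on the log2 scale (SE 0.22, adjusted p = 0.045, past the threshold in 8 of 15 alternatives), lost without NOD.B10 replicate 1, 2 or 3 or BL/10 replicate 2 or 3 (adjusted p = 0.074 to 0.0985, range over the alternatives 0.0065 to 0.403).

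Rsad2, which encodes viperin, an enzyme that makes a chain-terminating nucleotide, was one of the ISGs with the highest level per length of exon (87.2 CPM per kb over the 6 libraries). It was at 259, 291 and 159.7 CPM in NOD.B10 and 225, 685 and 644 CPM in BL/10. BL/10 replicate 1 lay within the NOD.B10 range and BL/10 replicates 2 and 3 lay far above it. Rsad2 had a log2 fold change of -1.13 (SE 0.41, adjusted p = 0.0985), which did not pass in the 6 libraries. It passed without BL/10 replicate 1 (adjusted p = 0.00588, range over the alternatives 0.00588 to 0.933), whereas with age as a covariate its value was 0.07 (SE 0.30, adjusted p = 0.933). Cmpk2 and Rsad2 are neighbors on chromosome 12, and Cmpk2 alone kept the strains apart. Xaf1 and Epsti1 were lower in every NOD.B10 library than in any BL/10 library but did not pass. Xaf1 was at 17.6, 12.6 and 17.7 CPM in NOD.B10 and 20.1, 30.4 and 23.3 CPM in BL/10, with a log2 fold change of -0.62 (SE 0.19, adjusted p = 0.0606), and it was past the threshold in 4 of 15 alternatives, without BL/10 replicate 1 among them (adjusted p = 0.0206, range over the alternatives 0.0206 to 0.508). Epsti1 was at 107, 98.6 and 116 CPM in NOD.B10 and 147, 136 and 122 CPM in BL/10, with a log2 fold change of -0.33 (SE 0.10, adjusted p = 0.065), and it was past the threshold in 1 of 15 alternatives. Neither gene therefore counts among the 18. Samd9l, which restrains translation in infected cells, was at 275, 238 and 318 CPM in NOD.B10 and 323, 225 and 207 CPM in BL/10, and the strains overlapped (log2 fold change 0.14, SE 0.19, adjusted p = 0.641).

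In the ISG15 conjugation system 3 of 4 genes fell, and the strains did not overlap for any of the 4. Isg15, the ubiquitin-like protein that is attached to other proteins, was at 57, 46.5 and 38.5 CPM in NOD.B10 and 79.8, 234 and 213 CPM in BL/10. BL/10 replicate 1 was much closer to NOD.B10 than to BL/10 replicates 2 and 3. Isg15 fell by 1.89 on the log2 scale (SE 0.38, adjusted p = 0.0163, past the threshold in 9 of 15 alternatives), and the call was lost without NOD.B10 replicate 2 or 3 or BL/10 replicate 2 or 3 (adjusted p = 0.0554 to 0.0652, range over the alternatives 6.28e-07 to 0.108). With age as a covariate the log2 fold change of Isg15 was -0.753 and the call was also lost. Usp18, which removes ISG15 from proteins and blocks signaling at the interferon receptor, was at 14.3, 13 and 15.1 CPM in NOD.B10 and 20.2, 38.2 and 27.8 CPM in BL/10. NOD.B10 varied little, and BL/10 replicate 2 was the highest. Usp18 fell by 1.02 on the log2 scale (SE 0.22, adjusted p = 0.0184, past the threshold in 11 of 15 alternatives), lost without NOD.B10 replicate 1, 2 or 3 (adjusted p = 0.0533 to 0.0682, range over the alternatives 0.000228 to 0.204). Trim25, a ubiquitin ligase that activates RIG-I, was at 107, 100 and 119.6 CPM in NOD.B10 and 129, 159 and 151 CPM in BL/10. This was the smallest difference among the 18 genes. Trim25 fell by 0.42 on the log2 scale (SE 0.11, adjusted p = 0.0371, past the threshold in 9 of 15 alternatives), lost without NOD.B10 replicate 1, 2 or 3 or BL/10 replicate 2 or 3 (adjusted p = 0.0561 to 0.134, range over the alternatives 0.00948 to 0.364). Herc6, the main ISG15 ligase of the mouse, was at 24.5, 24.6 and 28.2 CPM in NOD.B10 and 30.7, 49.5 and 35.1 CPM in BL/10. It did not pass (log2 fold change -0.57, SE 0.17, adjusted p = 0.0598), but it was past the threshold in 4 of 15 alternatives, with an adjusted p of 0.0143 without BL/10 replicate 1 (range over the alternatives 0.0143 to 0.555). Of its exon bases, 13.7% overlap another annotated gene.

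None of the 4 genes of the ADP-ribosylation group passed, with a median log2 fold change of -0.16. Parp9, Parp14 and Dtx3l, of which Parp9 and Dtx3l form a complex, had log2 fold changes of -0.18, -0.09 and -0.13 and overlapped between strains. Summed over the group, levels were 346, 285 and 329 CPM in NOD.B10 and 327, 396 and 352 CPM in BL/10. Parp12 ranged from 21.7 to 27.4 CPM in NOD.B10 and from 26.6 to 43.2 CPM in BL/10. It had a log2 fold change of -0.58 (SE 0.18, adjusted p = 0.0666) and was past the threshold in 4 of 15 alternatives, without BL/10 replicate 1 among them (adjusted p = 0.0059, range over the alternatives 0.0059 to 0.7).

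Of the 8 nuclear and other proteins only Ifi27 fell, and the median log2 fold change was -0.09. Ifi27, a small hydrophobic protein of membranes, was at 63.7, 57.4 and 62.9 CPM in NOD.B10 and 82.7, 116 and 108 CPM in BL/10. The strains were apart and each was compact apart from BL/10 replicate 1, which was lower than the other BL/10 libraries. Ifi27 fell by 0.74 on the log2 scale (SE 0.13, adjusted p = 0.00835, past the threshold in 14 of 15 alternatives). Its neighbor and relative Ifi27l2a had the highest level per length of exon of the 41 genes, 341 CPM per kb. Ifi27l2a was at 144, 101 and 131 CPM in NOD.B10 and 202, 219.7 and 150.0 CPM in BL/10. The strains did not overlap, but BL/10 replicate 3 was close to NOD.B10 replicate 1 and the difference missed the threshold (log2 fold change -0.60, SE 0.18, adjusted p = 0.0532). It was past the threshold in 5 of 15 alternatives, without BL/10 replicate 3 among them (adjusted p = 0.0261, range over the alternatives 0.0114 to 0.177).

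The other genes of this role overlapped between strains. Lgals3bp, a secreted glycoprotein that binds galectins, was at 199, 170.5 and 179 CPM in NOD.B10 and 174, 208 and 204 CPM in BL/10. Sp100, a component of nuclear bodies, was at 223, 196 and 253 CPM in NOD.B10 and 246, 237 and 225 CPM in BL/10. Helz2, a helicase that acts as a transcriptional coactivator, was at 226, 189 and 294 CPM in NOD.B10 and 243, 206 and 216 CPM in BL/10. Each of these genes is abundant and varied little between strains, with log2 fold changes of -0.10, -0.08 and 0.09. Ifi35 was at 51.1, 41.1 and 48 CPM in NOD.B10 and 42.9, 49.1 and 43.4 CPM in BL/10, and 16.8% of its exon bases overlap another annotated gene. Phf11b and Phf11d had log2 fold changes of -0.08 and -0.17, and 47.0% of the 50-base windows of Phf11b occur in related genes.

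**Figure D2:**
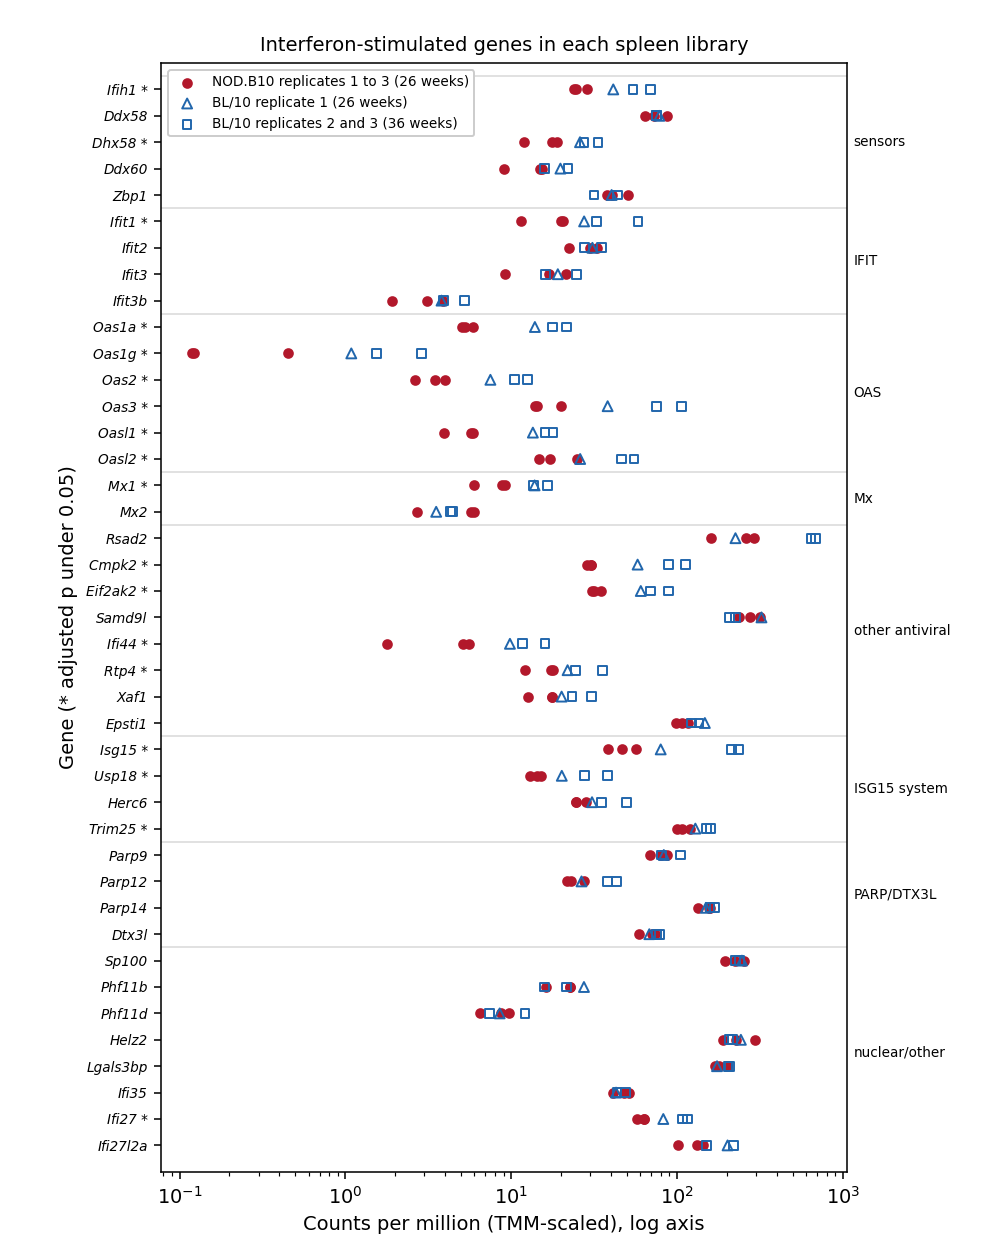
Level of each of the 41 ISGs in every library (CPM, log axis), grouped by role, with NOD.B10 libraries as filled circles, BL/10 replicate 1 as a triangle and BL/10 replicates 2 and 3 as squares, and asterisks at the 18 genes past the threshold. For Rsad2 the triangle, at 225 CPM, lies among the circles and the squares lie at 644 and 685 CPM, whereas for Oas1a all BL/10 symbols lie to the right of the circles.

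The members differed in how far they rested on BL/10 replicates 2 and 3, which are also the libraries labelled as 36 weeks. Without BL/10 replicate 1, 22 ISGs were lower in NOD.B10 and 0 higher, against 14.0% of all genes tested as lower, and the median log2 fold change of the ISGs was -0.72. In that fit all NOD.B10 mice are labelled as 26 weeks old and all BL/10 mice as 36 weeks old, so strain and age cannot be told apart. With age as a covariate, 6 ISGs were lower (Oas1a, Oas2, Oas3, Oasl1, Cmpk2 and Eif2ak2), against 3.21% of all genes tested, and the median was -0.42. In this fit the strain difference rests on BL/10 replicate 1 as the single BL/10 library of 26 weeks. Among calls lost in it, some log2 fold changes stayed close to those without the covariate (in brackets). These were -0.788 for Mx1 (-0.869), -0.685 for Dhx58 (-0.839) and -1.232 for Ifi44 (-1.579). Others were much smaller, at -0.753 for Isg15 (-1.891) and -0.464 for Oasl2 (-1.168). The scarce Oas1g kept most of its log2 fold change, at -2.171 (-2.901). Compared with that library alone, with no test, all 3 NOD.B10 libraries were lower for 25 of the 41 ISGs and higher for 0, while these patterns held for 32.7% and 33.3% of all genes tested. At equal labelled age the counts were 6 of 6 OAS genes, 4 of 4 genes of the ISG15 system and 7 of 8 other antiviral effectors. Oas1g, among the 6, passed the filter through its BL/10 counts alone and adds no support. The other counts were 3 of 5 sensors, 3 of 8 nuclear and other proteins, 1 of 2 Mx genes, 1 of 4 IFIT genes and 0 of 4 genes of the ADP-ribosylation group. Mean NOD.B10 levels were 0.384 times that of BL/10 replicate 1 for Oasl1, 0.389 times for Oas1a and 0.515 times for Cmpk2, and 1.05 times for Rsad2. The part of age in the strain difference of the other ISGs was not tested apart from that of the single library.

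Most neutrophil markers were lower along with these genes, while erythroid and proliferation markers mostly did not pass in the 6 libraries. The part of these markers in the ISG results was not tested. Of all genes tested, 8.17% were lower in the 6 libraries and 14.0% without BL/10 replicate 1. Neutrophil markers fell in NOD.B10 for 9 of 10 genes, and their summed level was 2265, 2524 and 2172 CPM in NOD.B10 and 6169, 12870 and 11280 CPM in BL/10, with S100a9 the most abundant and none at 0. The remaining marker, Cxcr2, overlapped between strains, with a log2 fold change of 0.58 (SE 0.22, adjusted p = 0.105 by edgeR). BL/10 replicate 1 was the lowest BL/10 library for all 10, as it was for 27 of the 41 ISGs, the 6 OAS genes included. Erythroid markers passed in 1 of 10 genes (Hba-a2) and in 4 without BL/10 replicate 1, and their summed level was 41550, 48630 and 27120 CPM in NOD.B10 and 29890, 59390 and 67990 CPM in BL/10, with Hbb-bs the most abundant and none at 0. These sums, like the levels of Rsad2, were low in BL/10 replicate 1 and NOD.B10 replicate 3. Hba-a2 stood apart from its list, at 7.42, 9.09 and 5.34 CPM in NOD.B10 and 1867, 3966 and 4810 CPM in BL/10. Hba-a1 overlapped between strains (log2 fold change 0.27), and the cause of the Hba-a2 difference was not tested. Proliferation markers passed in 0 of 8 genes and in 5, as lower, without BL/10 replicate 1, the lowest BL/10 library for all 8, and their summed level was 2234, 3307 and 2141 CPM in NOD.B10 and 2570, 5059 and 3714 CPM in BL/10, with Mki67 the most abundant and none at 0.

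T cell and plasma cell markers were mostly higher in NOD.B10, and the other lists passed in part or not at all. Of all genes tested, 9.16% were higher and 8.17% lower in the 6 libraries. Without BL/10 replicate 1, 1923 of 15590 genes tested were higher and 2176 lower. T cell markers rose in 9 of 10 genes, with and without BL/10 replicate 1, and plasma cell markers in 6 of 8, or 7 without it. B cell markers passed in 0 of 8 genes and in 6, as higher, without BL/10 replicate 1, the highest BL/10 library for all 8, and their summed level was 4248, 3639 and 4720 CPM in NOD.B10 and 4878, 2746 and 2949 CPM in BL/10. Of 8 NK cell markers 1 rose (Ncr1) and 1 fell (Klrb1c). Of 8 markers of plasmacytoid dendritic cells, the main producers of type I interferon, 1 fell (Ly6d, the most abundant), and the fold changes of 5 were below 0 and those of 3 above 0. Their summed level was 474, 392 and 505 CPM in NOD.B10 and 1140, 796 and 673 CPM in BL/10, with none at 0, but the gap lay mostly in Ly6d, at 166, 125 and 164 CPM in NOD.B10 and 738, 455 and 386 CPM in BL/10. Klk1 in BL/10, at 104, 20.6 and 4.15 CPM, was highest in replicate 1 and lowest in replicate 3, as the pancreas genes were, and was singled out after its values were seen. Apart from Ly6d and Siglech (adjusted p = 0.0688 by edgeR) the strains overlapped. Of 12 monocyte and macrophage markers, 4 fell (Ly6c2, Cd5l, Itgam and Fcgr1) and 1 rose (Vcam1), with 5 lower and 0 higher when BL/10 replicate 1 was left out. The pancreas genes were not past the threshold, 0 of 11 tested, although all 11 were lower in every NOD.B10 library than in any BL/10 library.

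Transcripts of the interferons themselves had few or no counts. Of 18 type I interferon ligand genes, 15 had 0 counts in all 6 libraries, Ifnab and Ifnb1 had a single count in BL/10 replicate 1 and Ifnz a single count in NOD.B10 replicate 3, and none could be tested. Reads that fit several genes were left out of the counts, many of the ligand genes are close copies of each other, and the part of this in the zeros was not tested. Trex1, a negative regulator, was also at 0 in all libraries. Reads shared between genes were left out of the counts too, and the part of this in the Trex1 zeros was not tested. The 4 receptor genes did not pass (Ifnar1, Ifnar2, Ifngr1 and Ifngr2), with Ifnar1 at 97.9, 98.4 and 98 CPM in NOD.B10 and 92.3, 91.9 and 94.7 CPM in BL/10. Below the receptor, Stat2, Jak1 and Tyk2 did not pass, and Irf9 was the single gene of 4 that did. Irf9, the DNA-binding part of ISGF3, was at 104, 93.8 and 109.7 CPM in NOD.B10 and 121, 155 and 138 CPM in BL/10. The strains did not overlap, and Irf9 fell by 0.43 on the log2 scale (SE 0.11, adjusted p = 0.0381, past the threshold in 8 of 15 alternatives), a call lost without NOD.B10 replicate 1, 2 or 3 or BL/10 replicate 2 or 3 (adjusted p = 0.0747 to 0.121, range over the alternatives 0.00943 to 0.375).

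Among 16 upstream sensors, adaptors and kinases, 1 fell and 3 rose. Irf7, the transcription factor that amplifies interferon production and is itself an ISG, was at 47, 32.5 and 44.1 CPM in NOD.B10 and 62.7, 128 and 107 CPM in BL/10. BL/10 replicate 1 was again the lowest BL/10 library, yet above all NOD.B10 libraries, and Irf7 fell by 1.26 on the log2 scale (SE 0.26, adjusted p = 0.0154, past the threshold in 10 of 15 alternatives), a call lost without NOD.B10 replicate 3 or BL/10 replicate 2 or 3 (adjusted p = 0.0505 to 0.0561, range over the alternatives 2.03e-05 to 0.151). Tmem173, which encodes the adaptor STING, was at 105, 98.3 and 112 CPM in NOD.B10 and 81.5, 61.2 and 59.6 CPM in BL/10, higher in NOD.B10 with a log2 fold change of 0.64 (SE 0.13, adjusted p = 0.0152), a call lost without NOD.B10 replicate 1 or 3 or BL/10 replicate 3 (adjusted p = 0.0575 to 0.06, range over the alternatives 0.000809 to 0.137). Ikbke, a kinase upstream of the interferon regulatory factors, and Irf1, a factor induced chiefly by interferon gamma, were also higher, with log2 fold changes of 0.69 and 0.42 and adjusted p of 0.0193 and 0.0367 by edgeR, and these were past the threshold in 12 and 10 of 15 alternatives. Of 10 negative regulators, 9 were tested and Socs3, an inhibitor of cytokine receptors, alone passed, at 49.5, 45.8 and 37.8 CPM in NOD.B10 and 23.8, 22.6 and 19.9 CPM in BL/10 (log2 fold change 1.00, SE 0.13, adjusted p = 0.00179). In all, 6 of the 33 tested pathway genes passed, or 18.2% against 17.3% of all genes tested, with a median log2 fold change of 0.10. Their directions, 4 higher and 2 lower, varied over the alternatives from 1 to 5 higher and from 0 to 5 lower, and Socs3 alone passed in all 15 that keep the threshold of 0.05.

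A further list held 46 interferon-responsive genes outside the 41, and 7 fell and 4 rose, against 8.17% of all genes tested as lower and 9.16% as higher, with a median log2 fold change of -0.20. The lower genes were Apobec3, Gm4951, Trim34a, Sp140, Ly6e, Lgals9 and Ogfr. Apobec3, a restriction factor of retroviruses, was at 42.2, 42 and 38.9 CPM in NOD.B10 and 264, 254 and 247 CPM in BL/10. Its BL/10 libraries lay close together, replicate 1 included, and Apobec3 fell by 2.64 on the log2 scale (SE 0.09, adjusted p = 4.37e-06, past the threshold in 15 of 15 alternatives). Ly6e, a membrane protein that restricts coronaviruses, was at 418, 358 and 425 CPM in NOD.B10 and 1008, 896 and 955 CPM in BL/10, and it fell by 1.25 on the log2 scale (SE 0.12, adjusted p = 0.000434, past the threshold in 15 of 15 alternatives). Ogfr was past the threshold in 8 of 15 alternatives, lost without NOD.B10 replicate 1, 2 or 3 or BL/10 replicate 2 or 3 (adjusted p = 0.083 to 0.132, range over the alternatives 0.0146 to 0.349), and the other 6 in all 15. The higher genes were Gbp2, Igtp, Shisa5 and Ifi47. Shisa5 was past the threshold in 8 of 15 alternatives, lost without NOD.B10 replicate 1 or 3 or BL/10 replicate 2 or 3 (adjusted p = 0.127 to 0.153, range over the alternatives 0.0072 to 0.418). Igtp was past the threshold in 12 of 15 alternatives, lost without NOD.B10 replicate 1 or BL/10 replicate 3 (adjusted p = 0.053 to 0.056, range over the alternatives 0.000708 to 0.167). Ifi47 was past the threshold in 12 of 15 alternatives, lost without NOD.B10 replicate 1 or 3 (adjusted p = 0.0664 to 0.0958, range over the alternatives 0.00328 to 0.213). Gbp2 was at 132, 84.1 and 97 CPM in NOD.B10 and 56.3, 55 and 49.3 CPM in BL/10, above BL/10 in every NOD.B10 library (log2 fold change 0.96, SE 0.16, adjusted p = 0.00698), and Gbp2 was past the threshold in 14 of 15 alternatives. Over the alternatives 6 to 14 genes of this list were lower and 0 to 4 higher, and with age as a covariate none was higher.

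Many of the 41 genes lie in clusters, and in some of these only part of the members passed. Differences between members were not tested, and a gene that passed can lie close to one that did not. For example, the log2 fold change was -0.738 for Ifi27, which passed, and -0.605 for Ifi27l2a, which did not. In the OAS cluster on chromosome 5 (Oas2, Oas3, Oas1g and Oas1a, chr5:120730333-120907521 in build GRCm38) all 4 members fell, while of 12 other tested genes within 250 kb none fell, Oas1b (adjusted p = 0.0564 by edgeR) and Oas1c included, and Dtx1 rose. Oasl1 and Oasl2, elsewhere on the same chromosome, both fell, and none of 15 tested neighbors passed. In the IFIT cluster on chromosome 19, Ifit1 fell and the other 3 members and 7 tested neighbors did not pass. Parp9, Dtx3l and Parp14 lie together on chromosome 16 and none of them passed, though their neighbor Hspbap1 fell. Near Ifi27 and Ifi27l2a, of which Ifi27 fell, 1 of 6 tested neighbors fell (Otub2), and near Mx1 and Mx2 1 of 3 rose (Ripk4).

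To show what the promoters share, RefSeq promoters (build GRCm38.p6, 250 bases before to 50 bases after the gene start) were searched on both strands for the core letters of the ISRE, GAAANNGAAA, where matches may overlap. Of the 41 genes, 30 had an entry, and 13 of these held the motif (43.3%), against 3.44% of 32851 promoters and 3.99% of 27025 genes. The letters were not particular to the 41, and were held by 53.8% of 39 further interferon-responsive genes with an entry and by 30.6% of 49 pathway genes. For comparison, the GAS motif of interferon gamma signaling, TTCNNNGAA, was in 4 of the 30, in 6 of the 39 and 19 of the 49, and in 8.30% of promoters. Of the 13 genes with the ISRE letters 7 fell (median log2 fold change -1.13), and of the 17 without them 5 fell (median -0.33), with no test of the difference. Of the genes without an entry, Dhx58, Oas2, Mx1, Rtp4, Usp18 and Ifi27 fell and Zbp1, Mx2, Parp9, Parp14 and Ifi27l2a did not pass. The sequences are those of the reference genome and not of NOD.B10, and a match in letters is a description and not a binding site.

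Stretches upstream of the gene start are given for genes that fell (Isg15, Oas3, Oas1a, Oas1g and Ifit1) and for genes that did not pass (Rsad2, Ifit3 and Ifit3b), 5′ to 3′ on the gene's strand, with the motif in capitals and overlapping matches joined. Capitals that read TTTC at both ends are the motif on the opposite strand.
Isg15 (chr4:156200862-156200921, minus strand): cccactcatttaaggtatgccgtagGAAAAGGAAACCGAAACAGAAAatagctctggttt
Oas3 (chr5:120777700-120777759, minus strand): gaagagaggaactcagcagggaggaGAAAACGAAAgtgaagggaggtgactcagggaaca
Oas1a (chr5:120907526-120907570, minus strand): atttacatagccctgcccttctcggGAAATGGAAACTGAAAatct
Oas1g (chr5:120887614-120887656, minus strand): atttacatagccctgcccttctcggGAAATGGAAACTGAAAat
Ifit1 (chr19:34640760-34640819, plus strand): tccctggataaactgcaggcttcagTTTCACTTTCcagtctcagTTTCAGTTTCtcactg
Rsad2 (chr12:26456538-26456597, minus strand): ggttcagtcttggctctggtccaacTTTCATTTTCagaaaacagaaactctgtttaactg
Ifit3 (chr19:34583348-34583407, plus strand): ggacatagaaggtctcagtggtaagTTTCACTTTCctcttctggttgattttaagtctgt
Ifit3b (chr19:34607744-34607803, plus strand): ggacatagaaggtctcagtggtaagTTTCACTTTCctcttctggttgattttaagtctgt
Isg15 holds 3 overlapping matches 78 bases or less before its start. The stretches of Oas1a and Oas1g are alike and each hold 2 overlapping matches, and those of Ifit3 and Ifit3b are identical over 60 bases. Ifit3 and Ifit3b also hold 2 matches each, but the second, 122 and 154 bases before the start, runs past the stretch shown. Both genes of each pair thus carry the same letters, and the first pair fell while the other did not pass.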

How the data were processed

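The authors deposited raw read counts per gene for spleens of 3 NOD.B10 and 3 BL/10 females. Per the file headers, featureCounts version 1.5.1 counted reads on exons of Ensembl annotation 84 (GRCm38), ignoring strand and leaving out multi-mapping reads and those shared between genes. The study's methods name Tophat2, whereas the submitters' processing notes list HISAT2 2.0.5. The deposited length of each gene, a value that is not per sample, was used for levels per kb.

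Counts were analysed in R 4.3.3 with edgeR 4.0.16 (filterByExpr, TMM, robust quasi-likelihood test, Benjamini-Hochberg adjusted p under 0.05), and alternatives used DESeq2 1.42.0, limma 3.58.1, other filters and scalings, age as a covariate, a replicate block and leaving out each library. The procedure was tested on simulated data. There 100 of 100 genes changed 4-fold and 82 of 100 changed 2-fold passed the threshold, and so did 25 unchanged genes. Strain was taken from the sample descriptions. Symbols came from GENCODE M21 for 47224 of 47729 identifiers. With 3 mice against 3, an exact permutation test cannot give a p below 0.1.

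Values in every library are given for each ISG past the threshold and for the 12 with the highest level per kb, with single values for others whose strains did not overlap and all pathway and further interferon-responsive genes past the threshold named. A gene of the pathway list is not reported here. The members and lists were chosen with earlier results of these data known.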

Additional observations from a re-analysis of the deposited data

How the results depend on the processing

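The direction of the 18 ISGs held under all alternatives, and none was called higher under any of them. Cmpk2, Eif2ak2, Oas1a, Oas2 and Oasl1 passed in 15 of 15 alternatives, and 9 of the 18 kept their call without each library in turn. Over all 41 genes and alternatives, 528 of 614 values kept their direction and their side of the threshold, 53 lost the threshold, 19 gained it, and 14 values that did not pass changed sign. The median log2 fold change of the ISGs lay between -0.72 and -0.42. At adjusted p under 0.01, 8 ISGs, 1 pathway gene, 7 of the further interferon-responsive genes and 1059 of all genes passed. With age as a covariate the counts were 6, 1, 6 and 918, where the strain difference rests on fewer libraries. Without the filter on low counts 17 of the further interferon-responsive genes passed, and the cause was not tested. Leaving out each library gave 11 to 22 ISGs, 1 to 10 pathway genes, 7 to 18 further interferon-responsive genes and 1305 to 4099 of all genes, in each case with the most without BL/10 replicate 1.

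The replicate numbers did not pair the samples, since deviations of libraries with the same number correlated by 0.054, 0.251 and -0.076. With a replicate block 14 ISGs, 5 pathway genes, 11 further interferon-responsive genes and 2978 of all genes passed.

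With 3 mice a strain, calls pass or fail with the choice of libraries at large and small fold changes alike, and Isg15 lost its call without 4 of the 6 libraries while Mx1 and Ifi27 kept theirs. Reads of both strains were aligned to a single reference genome, and the effect of strain differences in sequence on the counts was not tested.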
